A study of Mus musculus with 6 samples.

Results

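The ATP-binding cassette (ABC) transporter genes were examined in EO771, a mouse mammary carcinoma cell line, in 3 libraries of cancer stem cells (CSC) and 3 libraries of the other cells (non-CSC). Members were taken by symbol: Abc, a subfamily letter from a to g, a number and at most 1 further letter. Of the 49523 gene symbols in the count table, 50 matched, 16 in subfamily A, 10 in B, 10 in C, 4 in D, 1 in E, 3 in F and 6 in G. Members with values were selected on the sum of their 6 read counts, 60 or more, which left 36, and all 36 were also tested. That sum takes no account of the group, but a gene that is high in only 1 group can pass through that group alone, so the counts of members that moved are descriptions. No genotype, treatment or time differs between the groups in the labels, both groups carry the same cell line name, and the method of isolating the CSC is not named there. Nor do they say if the replicates came from separate cultures. All p-values therefore measure only the spread between these libraries, which may be technical.

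ABC proteins use ATP to move substrates across membranes, and their nucleotide-binding domains are the part that all subfamilies share. Subfamily A and most of G carry sterols and phospholipids, B and C hold drug and conjugate exporters as well as organelle transporters, and D serves the peroxisome and lysosome. Members of E and F have no membrane domain and act on ribosomes. Export pumps such as P-glycoprotein (Abcb1a and Abcb1b in the mouse) and the breast cancer resistance protein (Abcg2) lower the drug content of cells, and dye exclusion by Abcg2 is used to mark stem-like side populations in tumours and mammary tissue.

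The libraries held 27099879 to 35971131 counts. Carcinoma keratin and epithelial markers summed to 3310 to 3470 CPM (read counts scaled to library size) in non-CSC and 4070 to 4260 CPM in CSC. Within that list Krt5, Cdh1 and Cldn7 averaged at most 3.64 CPM in either group, while Krt8 averaged 715 CPM in non-CSC and 863 CPM in CSC. Krt7 had the largest rise of the list, from a mean of 501.5 to 1057 CPM, whereas Epcam fell from 21.28 to 10.25 CPM. Of the 9 markers, 5 were called higher and 2 lower in CSC, and 2 did not pass. Of 12 stem cell markers, 9 were tested, 4 were higher and 4 lower in CSC, and Thy1 had no count. Among all genes tested, 33.4% were higher and 33.1% lower by the same test, described below. Of the 8 macrophage markers Adgre1, C1qa and C1qb had no count in any library, and the list summed to 27.4 to 29.4 CPM in non-CSC and 35.6 to 36.7 CPM in CSC. Within it, mean Itgam rose from 0.741 to 10.2 CPM and Csf1r from 1.86 to 8.06 CPM, while Cd68 fell from 25.4 to 17.8 CPM, and Ptprc had 22 counts in all. Endothelial markers, 7 in number with Tek and Emcn at 0 counts, summed to 1.38 to 1.75 CPM in non-CSC and 5.83 to 6.07 CPM in CSC, where Vwf made up most of the sum. The 8 lymphocyte markers, 3 of them at 0 counts, stayed at 0.141 to 0.517 CPM over all libraries. The 6 fibroblast markers summed to 555 to 589 CPM in non-CSC and 1200 to 1240 CPM in CSC, nearly all of it Dcn, with Lum at 0 counts and Col1a2 and Fap at 1 count each. The part of these differences in the results below was not tested. In bulk RNA, fewer cells of a type and less RNA per cell cannot be told apart.

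Of the 36 members with values, 19 were higher and 12 lower in CSC by edgeR's quasi-likelihood test with a Benjamini-Hochberg adjusted p below 0.05, and 5 did not pass. Among all 17630 genes tested, 33.4% were higher and 33.1% lower by the same rule. At least 2-fold changes were called for 10 members higher and 3 lower, where 8.01% of all genes were higher and 4.09% lower by that rule. The median log2 fold change was 0.156 over the 36 members and 0.0112 over all genes. Libraries of the groups did not overlap in CPM for 20 members that were higher and 12 that were lower in CSC, against 35% and 34.3% of all genes. Subfamily A had 9 of 11 higher and 2 lower, B 3 of 7 higher and 4 lower, C 3 of 7 higher and 3 lower, and D 1 of 4 higher and 2 lower. The single E member was higher, F was split with 1 higher and 1 lower of 3, and G had 1 of 3 higher. With an offset that takes the median change of adjacent genes from each gene, the counts were 20 higher and 12 lower. That median enters as a fixed value, so adjusted p-values with the offset carry none of the spread among the adjacent genes. They do not test whether a gene differs from its neighbours.

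**Figure D1:**
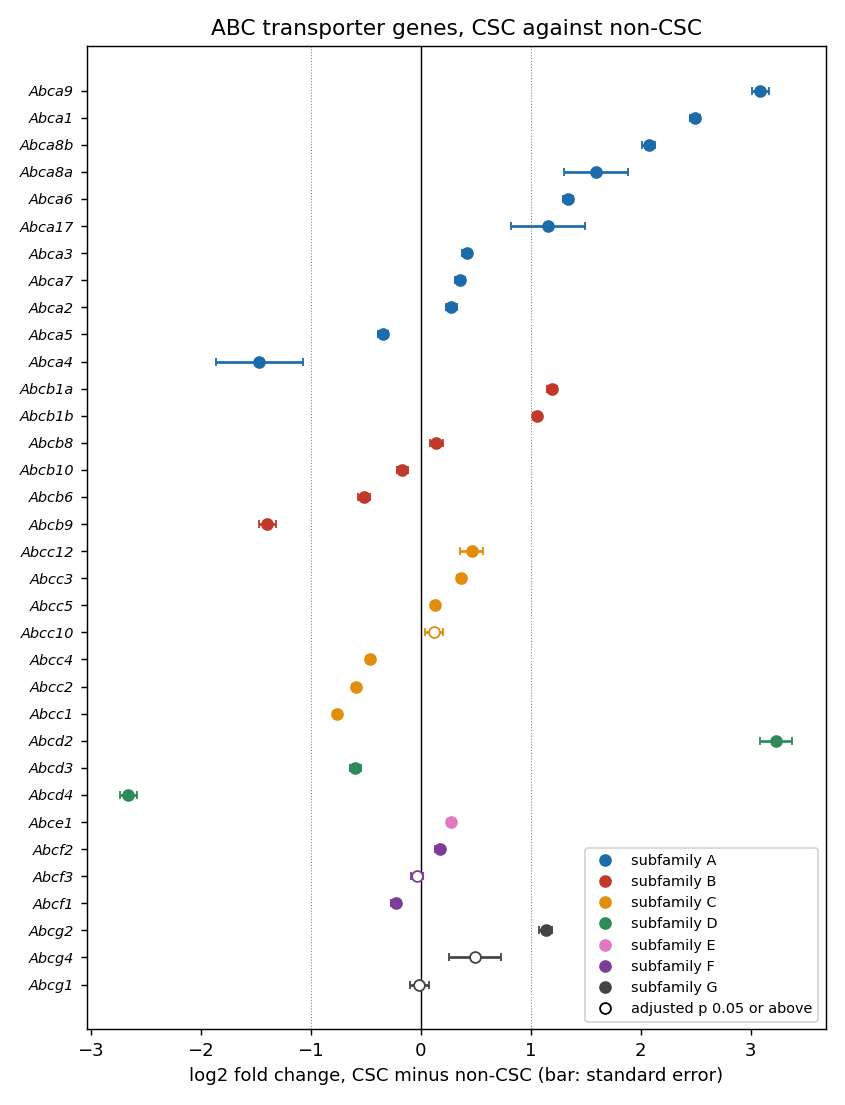
The log2 fold change (CSC minus non-CSC, x axis) of 34 ABC genes with values is drawn with its standard error, by subfamily, filled where the adjusted p was under 0.05; dotted lines mark 2-fold. Abcd2 (3.23) and Abca9 (3.08) lie farthest to the right and Abcd4 (-2.66) farthest to the left.

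The other 14 symbols fell under the sum of 60. Abca13, Abca15 and Abcg3 had no count in any library, which allows up to 3 counts, or 0.0849 to 0.109 CPM depending on the library. Abcb5, a marker of some melanoma cells, had 1 count in all 6 libraries together. The sterol exporter pair Abcg5 and Abcg8 had 1 and 3 counts, and Abcc6 and the potassium channel subunit Abcc9 had 5 each. Abca14 and Abca16 had 6 and 7 counts, Abcc8, the sulphonylurea receptor of beta cells, 27, and the biliary phospholipid exporter Abcb4 30. Just under the threshold were the bile salt export pump Abcb11 with 35 counts (0.239 CPM in non-CSC and 0.130 CPM in CSC) and the skin lipid transporter Abca12 with 39 counts (0.137 and 0.294 CPM). Just above it were Abca4 with 61 counts (0.463 and 0.166 CPM) and Abca17 with 72 counts (0.245 and 0.553 CPM).

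Among the exporters of drugs and conjugates, P-glycoprotein genes and Abcg2 were higher in CSC. The multidrug resistance-associated proteins (MRP, subfamily C) were split, with Abcc1, Abcc2 and Abcc4 lower and Abcc3 and Abcc5 higher. Of 9 such members with values, 5 were higher, 3 lower and 1 did not pass. Abcb1a, which encodes a P-glycoprotein, stood at 31.1, 30.8 and 32.1 CPM in the non-CSC libraries and 73.5, 71.2 and 70.0 CPM in the CSC libraries. The CSC libraries were all above the non-CSC libraries, with a log2 fold change of 1.19 ± 0.0446 (SE, adjusted p = 1.39e-16). Abcb1b, the other mouse P-glycoprotein gene, stood at 70.3, 72.3 and 71.9 CPM in non-CSC and 148, 154 and 144 CPM in CSC. Its log2 fold change was 1.06 ± 0.0378 (SE, adjusted p = 6.34e-17), again without overlap. Both genes lie on chromosome 5 (GRCm38), Abcb1a at chr5:8567091-8748575 and Abcb1b at chr5:8798147-8866314, 49.6 kb apart on the plus strand. The transcripts share sequence: 17.0% of the 50-base words of the longest Abcb1a transcript are found in other transcripts, most often those of Abcb1b, and 18.3% in the reverse case. Reads from those stretches could have been counted for either gene. The 29 tested genes around each had median log2 fold changes of 0.03 and 0.04, close to 0.

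The 250 bases before a RefSeq start (GRCm38.p6, plus strand) are shown for this pair because the genes changed by similar amounts and have separate annotated starts. Which starts the cells used was not measured. A gene can have several starts, so a window here or below need not lie before the outermost end of its gene. Capitals mark matches, on either strand, to the GC box GGGCGG, the CCAAT box CCAAT, the E-box CACGTG, the TATA box TATAAA, the nuclear receptor core AGGTCA, the AP-1 site TGANTCA and the antioxidant element core TGACNNNGC.
Abcb1a, chr5:8566841-8567090: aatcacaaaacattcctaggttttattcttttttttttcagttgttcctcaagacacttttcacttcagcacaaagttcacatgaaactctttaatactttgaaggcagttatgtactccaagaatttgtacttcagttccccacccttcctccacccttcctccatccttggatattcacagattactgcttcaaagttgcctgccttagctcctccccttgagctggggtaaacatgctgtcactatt
Abcb1b, chr5:8797897-8798146: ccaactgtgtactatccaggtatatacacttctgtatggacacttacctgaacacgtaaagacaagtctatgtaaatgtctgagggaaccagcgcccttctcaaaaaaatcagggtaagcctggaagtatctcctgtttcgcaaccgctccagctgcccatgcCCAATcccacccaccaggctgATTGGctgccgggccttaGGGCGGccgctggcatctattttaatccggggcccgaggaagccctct
The Abcb1b window held 1 GC box, 48 bases before the start, and 2 CCAAT boxes, at 87 and 66 bases. The Abcb1a window held none of these letters, and its GC content was 40.4% against 52.8% for Abcb1b. Among 32851 such windows of RefSeq genes, 32.7% held a GC box and 33.8% a CCAAT box. A match is a description of the letters and not a bound site.

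Abcg2, the breast cancer resistance protein, stood at 29.0, 28.2 and 26.8 CPM in non-CSC and 55.3, 65.7 and 63.4 CPM in CSC. All CSC libraries were higher, and CSC replicate 1 was the lowest of them, with group means of 28.0 ± 1.12 and 61.5 ± 5.48 CPM (SD, n = 3 each). The log2 fold change was 1.14 ± 0.0582 (SE, adjusted p = 3.41e-13). It lies at chr6:58584491-58692451, and its 30 neighbours had a median of 0.09.

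Abcc1 (MRP1), an exporter of glutathione conjugates, went the other way. It stood at 94.3, 94.96 and 91.2 CPM in non-CSC and 54.8, 54.4 and 56.2 CPM in CSC, so that every CSC library was lower. The log2 fold change was -0.76 ± 0.0402 (SE, adjusted p = 8.13e-14), and the 30 neighbours at chr16:14361453-14474878 had a median of 0.06. Abcc2 (MRP2), an apical conjugate exporter best known from liver, stood at 180, 176 and 176 CPM in non-CSC and 114, 118 and 121 CPM in CSC. It was lower in CSC without overlap, with a log2 fold change of -0.59 ± 0.0366 (SE, adjusted p = 1.66e-12). Its neighbours on chromosome 19 were lower as well: 24 of 30 had a negative change and their median was -0.45. With those neighbours taken as an offset the log2 fold change of Abcc2 was -0.14 (adjusted p = 0.00151).

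The remaining conjugate exporters moved less. Abcc4 (MRP4), which exports cyclic nucleotides and prostaglandins, fell by 0.46 on the log2 scale, and by 0.22 with its neighbours as an offset. Abcc3 (MRP3), a basolateral exporter of glucuronides, rose by 0.37, and Abcc5 (MRP5), another cyclic nucleotide exporter, by 0.13. The rise of Abcc5 did not pass with the neighbour offset (log2 fold change 0.04, adjusted p = 0.394). Abcc10 (MRP7) had a log2 fold change of 0.12 and did not pass (adjusted p = 0.182), though it passed with the neighbour offset (0.40, adjusted p = 0.000126). Abcc12, outside the known drug exporters, rose by 0.46.

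**Figure D2:**
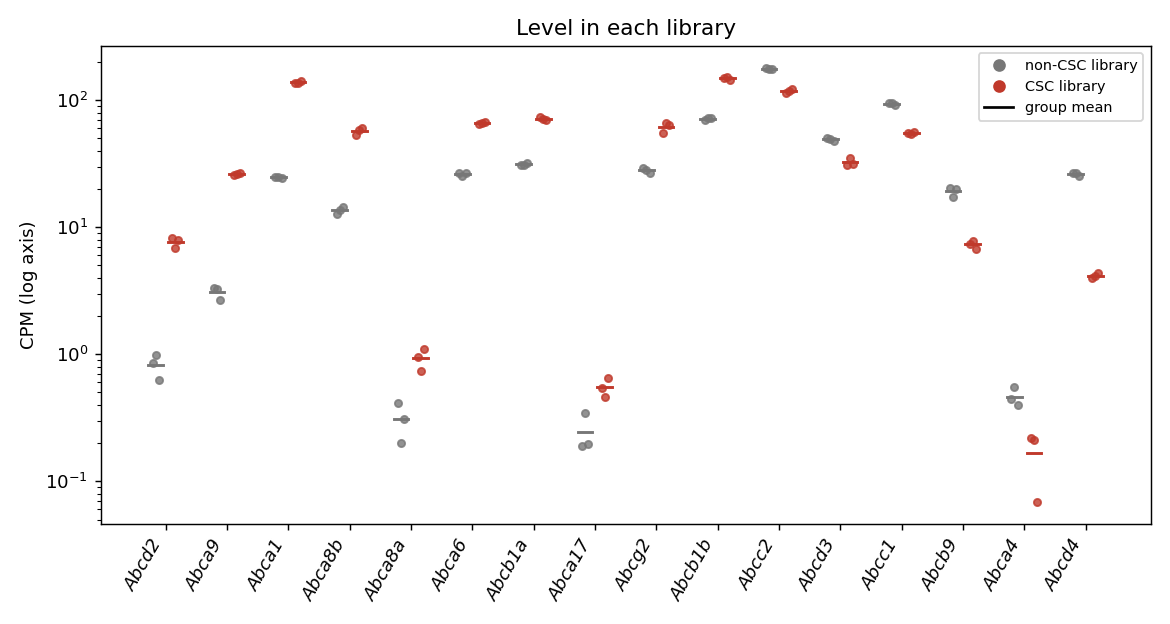
Levels in CPM (log axis) of the 16 ABC genes described in full are shown for each library, grey for non-CSC and red for CSC, with a bar at the group mean, ordered by fold change from the largest rise to the largest fall. In each of the 16 the CSC points lie wholly above or wholly below the non-CSC points.

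Among transporters of sterols and phospholipids, Abca1 rose most, 3 other members of subfamily A rose by less than 1.5-fold, and the tested members of subfamily G on the list did not pass. Abca1, which loads cholesterol and phospholipid onto apolipoprotein A-I and is a known target of the liver X receptors (LXR), stood at 24.7, 24.96 and 24.2 CPM in non-CSC and 138, 137 and 141 CPM in CSC. The groups were far apart, with a log2 fold change of 2.49 ± 0.0418 (SE, adjusted p = 5.05e-23), a 5.63-fold rise. It lies at chr4:53030789-53159988 on the minus strand, where 30 neighbours had a median of 0.24. Abcg1, which passes cholesterol to lipoprotein particles and is known as another LXR target, averaged 6.61 ± 0.232 CPM in non-CSC and 6.56 ± 0.456 CPM in CSC (SD, n = 3 each), and its libraries overlapped. Its log2 fold change was -0.01 ± 0.0874 (SE, adjusted p = 0.904). Abcg4, related to Abcg1, stood at about 1 CPM and did not pass (0.49 ± 0.234, SE, adjusted p = 0.0686), but passed under 3 of 14 alternatives, 1 of them without non-CSC replicate 2 (adjusted p = 0.0318). Abca2, a transporter of endosomes and lysosomes, rose by 0.28, Abca7, a phospholipid transporter related to Abca1, by 0.35, and Abca3, the lipid pump of lamellar bodies, by 0.42 on the log2 scale. Exons of D330041H03Rik on the other strand cover 9.75% of those of Abca3.

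The Abca1 window is shown because this gene had the lowest adjusted p of the family (250 bases, GRCm38.p6, minus strand, capitals as above).
Abca1, chr4:53159896-53160145: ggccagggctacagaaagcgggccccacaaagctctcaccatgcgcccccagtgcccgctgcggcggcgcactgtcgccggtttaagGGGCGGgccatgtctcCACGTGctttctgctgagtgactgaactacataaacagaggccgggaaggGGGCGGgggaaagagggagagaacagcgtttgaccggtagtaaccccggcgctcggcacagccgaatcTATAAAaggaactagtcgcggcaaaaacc
It held GC boxes 163 and 97 bases before the RefSeq start, an E-box at 147 and a TATA box at 29. The window overlaps the gene range, which ends at 53159988. E-boxes were found in 6.02% and TATA boxes in 12.4% of all windows.

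A cluster of subfamily A genes on chromosome 11 moved in opposite directions. Abca5, Abca6, Abca9, Abca8a and Abca8b follow each other on the minus strand over 405.5 kb, and all are lipid transporter relatives of Abca1 without a settled substrate. Abca5, the first in the direction of transcription, fell by 0.34 on the log2 scale (adjusted p = 7.92e-07), from 132 ± 5.72 to 104 ± 6.84 CPM (SD, n = 3 each). Abca6, next to it, stood at 26.8, 25.5 and 26.6 CPM in non-CSC and 65.3, 65.8 and 67.8 CPM in CSC, a log2 fold change of 1.34 ± 0.046 (SE, adjusted p = 2.93e-17). Abca9 stood at 3.35, 3.29 and 2.69 CPM in non-CSC and 25.9, 26.3 and 26.8 CPM in CSC. That is an 8.49-fold rise, with a log2 fold change of 3.08 ± 0.0792 (SE, adjusted p = 1.26e-19) and no overlap. Abca8b stood at 12.7, 13.7 and 14.5 CPM in non-CSC and 53.7, 58.3 and 60.2 CPM in CSC, a log2 fold change of 2.07 ± 0.0589 (SE, adjusted p = 8.24e-19). Abca8a was low, with 13, 7 and 11 counts in non-CSC and 26, 21 and 32 in CSC, and rose by 1.59 ± 0.289 (SE, adjusted p = 4.16e-05). It reached the sum of 60 only through the CSC libraries. The 4 genes that rose thus sit beside 1 that fell, each without overlap between groups. Of the 26 other genes around them, 16 or 17 had a positive change, with medians of 0.24 to 0.26. Abca8a and Abca8b share 1.89% and 1.43% of their 50-base words with other transcripts, most often those of each other. Abca8b had far more counts, 399 to 514 per library in non-CSC and 1479 to 1747 in CSC. Reads from the shared stretches could have been counted for either gene. How much of the low Abca8a counts and their rise they make up was not tested.

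**Figure D3:**
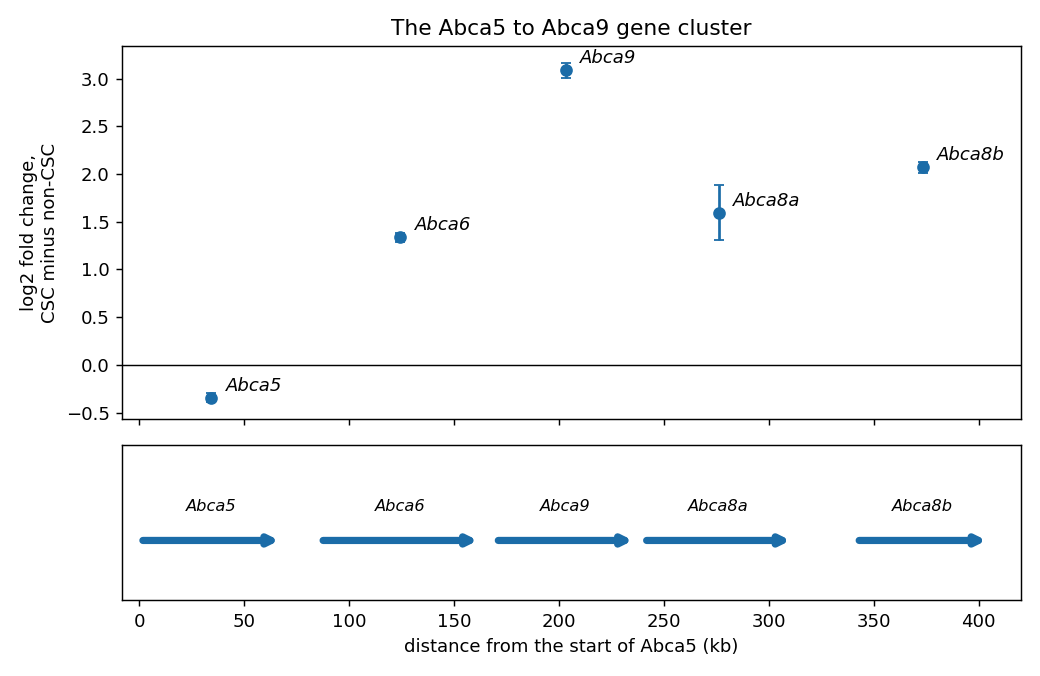
The upper panel plots the log2 fold change (CSC minus non-CSC, bar: standard error) of the 5 genes of the chromosome 11 cluster against distance from the start of Abca5 in kb, and the lower panel draws each gene as an arrow in the direction of transcription. Abca5 lies below 0 at -0.34 and the other 4 genes lie between 1.34 and 3.08.

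Promoter windows of the cluster are shown for the gene that fell and for the 2 genes that rose most (250 bases, GRCm38.p6, minus strand, capitals as above).
Abca5, chr11:110337717-110337966: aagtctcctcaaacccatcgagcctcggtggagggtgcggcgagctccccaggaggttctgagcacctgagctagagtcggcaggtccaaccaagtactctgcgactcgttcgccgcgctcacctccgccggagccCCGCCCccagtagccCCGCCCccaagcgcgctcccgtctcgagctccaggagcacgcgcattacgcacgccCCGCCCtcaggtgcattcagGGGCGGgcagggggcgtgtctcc
Abca9, chr11:110168154-110168403: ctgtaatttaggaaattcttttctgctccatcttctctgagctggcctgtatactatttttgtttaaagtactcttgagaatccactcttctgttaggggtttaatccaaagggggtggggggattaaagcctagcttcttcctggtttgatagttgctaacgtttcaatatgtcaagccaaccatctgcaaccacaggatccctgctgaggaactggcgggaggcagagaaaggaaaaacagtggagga
Abca8b, chr11:109995846-109996095: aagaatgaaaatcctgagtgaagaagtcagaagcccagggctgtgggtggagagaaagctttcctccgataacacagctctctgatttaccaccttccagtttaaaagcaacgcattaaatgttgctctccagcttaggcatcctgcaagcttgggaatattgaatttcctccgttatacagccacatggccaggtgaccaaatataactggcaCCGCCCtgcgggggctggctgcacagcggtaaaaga
The Abca5 window held 4 GC boxes and a GC content of 69.2%. The Abca8b window held 1 GC box with a GC content of 48.8%, and the Abca9 window held none of the motifs with 44.4%. Over all windows the median GC content was 52.4%. The Abca8b window lies wholly inside the gene range, which ends at 109996274. The Abca9 and Abca5 windows overlap their gene ranges, which end at 110168274 and 110337723.

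The remaining members of subfamily A were near the limit of detection. Abca4, the retinal lipid flippase, had 14, 19 and 14 counts in non-CSC and 6, 6 and 2 in CSC, a log2 fold change of -1.47 ± 0.396 (SE, adjusted p = 0.0024). Its level was under 1 CPM in all libraries, and 29 neighbours on chromosome 3 had a median of -0.42. Abca17, a relative of Abca3 that lies beside it on chromosome 17, had 6, 12 and 7 counts in non-CSC and 15, 13 and 19 in CSC, and rose by 1.16 ± 0.334 (SE, adjusted p = 0.00419). Other transcripts, most often those of Abca3, hold 2.75% of the 50-base words of Abca17. Abca3 had 3343 to 3871 counts per library, so reads from shared stretches could be part of the Abca17 counts, which was not tested.

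Transporters of mitochondria and lysosomes in subfamily B were lower in CSC in 4 of 5 cases. Abcb9, a lysosomal peptide transporter related to TAP, stood at 20.4, 17.4 and 19.9 CPM in non-CSC and 7.44, 7.85 and 6.69 CPM in CSC. It fell without overlap by 1.39 ± 0.0794 on the log2 scale (SE, adjusted p = 3.47e-13), and by 1.03 with its neighbours on chromosome 5 as an offset, whose median was -0.36. Abcb6, linked to porphyrin transport, fell by 0.52, but 55.2% of its exon bases are also annotated to the overlapping gene Gm29253 on the same strand and 66.8% of its 50-base words recur there or in other transcripts, so its level is uncertain. Abcb10, needed for haem synthesis, fell by 0.17. Abcb8, another mitochondrial member, had a rise of 0.14 that passed narrowly (adjusted p = 0.0399) and was lost under 6 of 15 alternatives. These included leaving out non-CSC replicate 2 or 3 or CSC replicate 2 or 3, with adjusted p from 0.0713 to 0.191. The fall of Abcb10 was lost with upper-quartile and plain library-size scaling. The Abcb9 window is shown as that of the member with the largest fall among those matched in the promoter table at over 5 CPM (250 bases, GRCm38.p6, minus strand, capitals as above).
Abcb9, chr5:124095799-124096048: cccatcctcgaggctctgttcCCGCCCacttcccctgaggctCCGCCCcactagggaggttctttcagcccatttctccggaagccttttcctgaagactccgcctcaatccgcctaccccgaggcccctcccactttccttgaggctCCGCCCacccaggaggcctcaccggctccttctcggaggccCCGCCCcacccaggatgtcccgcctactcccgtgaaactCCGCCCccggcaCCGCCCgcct
It held 6 GC boxes, from 229 to 10 bases before the RefSeq start, and a GC content of 67.6%. The window overlaps the gene range, which ends at 124095955.

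The genes most unlike each other were in subfamily D. Abcd2, a peroxisomal importer of very long-chain fatty acids, stood at 0.860, 0.980 and 0.622 CPM in non-CSC and 8.28, 6.86 and 7.997 CPM in CSC. Its rise of 3.23 ± 0.144 on the log2 scale (SE, adjusted p = 3.91e-15) was the largest of the family. Abcd4, which works with Lmbrd1 to release cobalamin (vitamin B12) from lysosomes, stood at 26.5, 26.9 and 25.2 CPM in non-CSC and 3.96, 4.14 and 4.34 CPM in CSC. It fell 6.31-fold, a log2 fold change of -2.66 ± 0.0736 (SE, adjusted p = 5.01e-19), with no overlap. Abcd3 (PMP70), an importer of branched-chain and other fatty acids, stood at 50.4, 49.4 and 47.7 CPM in non-CSC and 31.1, 34.8 and 31.6 CPM in CSC. It fell by 0.60 ± 0.0504 (SE, adjusted p = 3.9e-10), and by 0.25 with its neighbours on chromosome 3 as an offset.

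Abcd4 lies at chr12:84601869-84617485 in a stretch where most genes were lower. Of the 30 tested neighbours of Abcd4, 24 were called lower, none higher and 6 not called. The shares over all genes tested were 33.1% lower and 33.4% higher. The log2 fold changes of the 30 neighbours ran from -1.17 to 0.004, with a median of -0.48. With that median as an offset Abcd4 fell by 2.17 on the log2 scale (adjusted p = 3.03e-17), and its own change of -2.66 lay below that of each of the 30. The neighbour with the lowest value was Isca2, an iron-sulphur assembly factor, at -1.17. Over the family, the neighbour medians ran from -0.48 to 0.39. Of the 8 members whose neighbours had a median of -0.2 or below, 7 had a negative change, and of the 8 with neighbours at 0.2 or above, 2 had. The latter include the 5 genes of the chromosome 11 cluster, which share nearly all their neighbours and are 1 region. The 8 with lower neighbours include Abcd3 and Abca4, which lie close together on chromosome 3, share neighbours and are not separate regions. Whether whole stretches of chromosome differ between the groups was not tested.

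**Figure D4:**
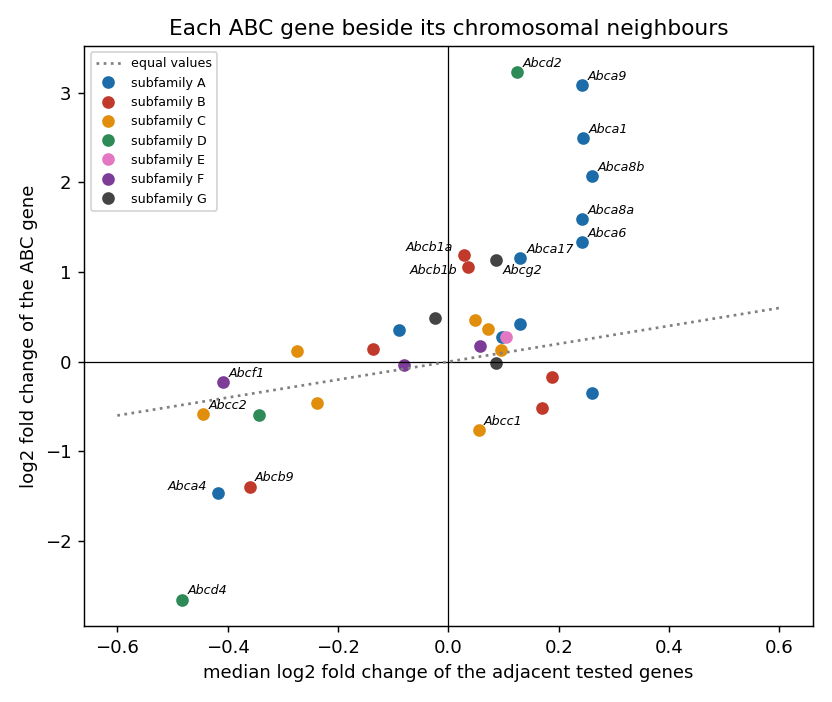
The log2 fold change of 34 ABC genes (y axis) is plotted against the median log2 fold change of up to 30 adjacent tested genes that are not ABC genes (x axis), with a dotted line where both are equal. Abcd4, Abca4 and Abcb9 lie below neighbours that were themselves lower, while Abcd2, Abca9 and Abca1 lie more than 2 above theirs.

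The soluble members changed little. Abce1, which splits ribosomes after termination, rose by 0.28, from 205 ± 7.01 to 248 ± 1.33 CPM (SD, n = 3 each). Abcf1, a translation initiation factor partner, fell by 0.23 and Abcf2 rose by 0.17 on the log2 scale. Abcf3, whose yeast relative Gcn20 acts in amino acid sensing, did not pass (-0.03, adjusted p = 0.57). Abcf1 changed sign with the neighbour offset, to 0.18 (adjusted p = 0.000214), because its 30 neighbours on chromosome 17 had a median of -0.41.

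Levels between genes were compared as CPM per kb of annotated exon. In non-CSC the highest were Abcc3 at 36.8 ± 1.33, Abcf1 at 36.3 ± 0.364, Abce1 at 34.1 ± 1.16 and Abcf2 at 31.04 ± 0.132 CPM per kb (SD, n = 3 each), with the libraries of Abcc3 and Abcf1 overlapping. Abcc4, Abcc5 and Abcc2 followed at 21.0, 20.9 and 20.8, each overlapping the next. In CSC the order was Abcc3 at 47.5 ± 0.587, Abce1 at 41.3 ± 0.217, Abcf2 at 34.95 ± 1.2 and Abcf1 at 30.9 ± 1.22 CPM per kb (SD, n = 3 each), without overlap between neighbours in that order. Abcb1b moved from rank 12 to rank 6 of the 36 and stood at 18.6 CPM per kb in CSC. Abca1 moved to rank 10, at 13.4, beside Abcc2 and Abcb1a, whose libraries overlapped with its own in turn. Of the 35 pairs of neighbours in the order, libraries overlapped in 16 in non-CSC and in 12 in CSC.

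**Figure D5:**
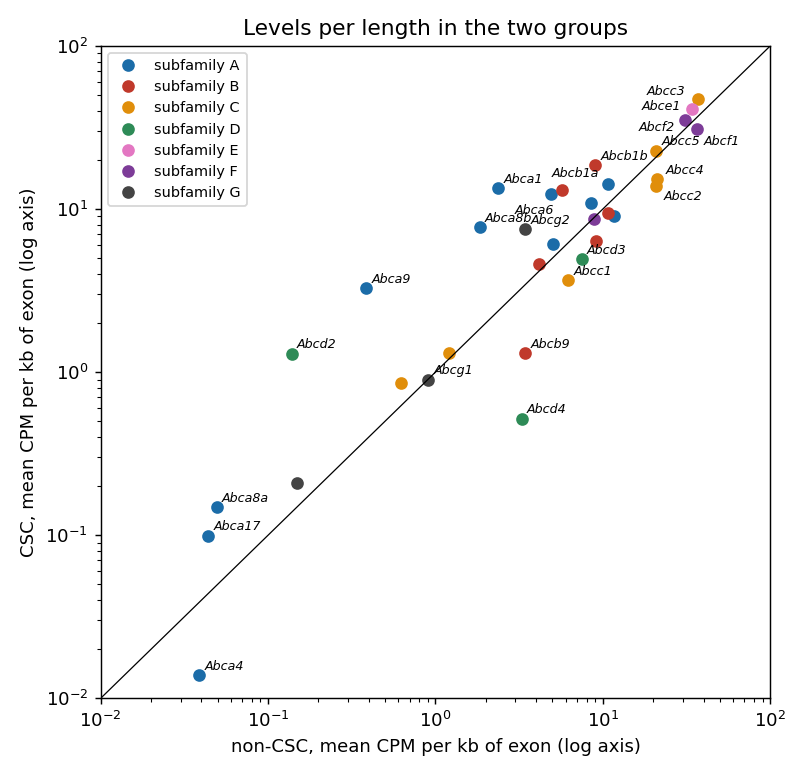
Mean CPM per kb of exon in CSC (y axis) is plotted against that in non-CSC (x axis), both on log axes, for 34 ABC genes with values, coloured by subfamily, with a line of equality. Abcd2, Abca9, Abca1 and Abca8b lie farthest above the line and Abcd4 farthest below it.

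Genes that supply, sense or work beside these transporters were taken from lists. Counts for each list are descriptions, to be read beside the 33.4% higher and 33.1% lower among all genes tested. Of 14 sterol sensors and handlers, 13 were tested, 3 were higher and 9 lower, with a median log2 fold change of -0.64. Apoe, an acceptor for exported cholesterol, fell by 1.23, the lipoprotein receptor gene Scarb1 by 1.10 and the sterol regulator Srebf2 by 0.99 on the log2 scale. Pparg, picked with its value known, had the largest change of the list, a log2 fold change of -2.30 (adjusted p = 5.41e-13). Its mean of 3.91 CPM was under the 5 CPM set for naming. Another 4 genes of the list were picked with their values known. The LXR gene Nr1h2 rose by 0.18, the LXR gene Nr1h3 had -0.04 and did not pass (adjusted p = 0.817), and Mylip, an LXR target that marks lipoprotein receptors for degradation, rose by 1.17. Srebf1, a lipid synthesis regulator and known LXR target, rose by 0.61, whereas Apoe, also known as an LXR target, is among the genes that fell.

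Of 15 regulators of drug and stress response, 14 were tested, with 5 higher, 7 lower and a median of -0.08. Cebpb fell by 0.98, while the NRF2 gene Nfe2l2 had a rise of 0.56 and the glucocorticoid receptor gene Nr3c1 one of 0.55. The pregnane X receptor gene Nr1i2, a known inducer of P-glycoprotein, had 7 counts in all and was not tested. Another receptor gene, Nr1i3, had the largest rise of the list, 0.72 on the log2 scale (adjusted p = 8.91e-05). Its mean of 2.27 CPM was under the 5 CPM set for naming. Both Nr1i2 and Nr1i3 were named with their values known. Of 16 genes of glutathione supply and conjugation, which make substrates of the MRP exporters, 5 were higher and 7 lower, with a median of -0.23. The transferase genes Gstm1 and Gstp2 fell by 1.24 and 1.21 and Gclm, a subunit of the rate-limiting enzyme of glutathione synthesis, by 1.23 on the log2 scale. Overlap with paralogs was not checked for these genes, so Gstp2 is uncertain. Of 19 other drug carriers, 14 were tested, 4 were higher and 7 lower. The prostaglandin carrier Slco2a1 fell by 1.08 and the nucleoside carrier Slc29a2 by 0.84, and the cation carrier Slc22a4 rose by 0.57 on the log2 scale.

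Of 16 haem and iron-sulphur genes, not all of them mitochondrial and some acting beside Abcb10, 5 were higher and 8 lower. Isca2 fell by 1.17 and the mitochondrial iron importers Slc25a37 and Slc25a28 by 0.91 and 0.89 on the log2 scale. Of 11 partners in peroxisomes and in cobalamin release, 4 were higher and 4 lower, near the shares over all genes. Pex5 and Pex14 of peroxisomal protein import fell by 0.39 and 0.34 and the thiolase gene Acaa1a rose by 0.33 on the log2 scale. Lmbrd1, the partner of Abcd4 and chosen after its value was seen, had 0.07 and did not pass (adjusted p = 0.183). Of 12 genes of ribosome recycling and rescue, 2 were higher and 9 lower. Eif2s1, a subunit of initiation factor eIF2, fell by 0.66, the ubiquitin ligase gene Zfp598 by 0.58 and Nemf by 0.56 on the log2 scale. ABC genes with other symbols were also split: the peptide transporter subunit Tap1 fell by 0.39, its partner Tap2 rose by 0.49, and the chloride channel Cftr had 5 counts in all.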

How the data were processed

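Per the labels' protocols, total RNA was isolated with Trizol and sequenced from NEB Next Ultra II libraries. The authors deposited 1 table of whole-number read counts per gene symbol, without normalization; the submitters' processing notes name GRCm38. No aligner, counter, strand setting or annotation is given in the sources used here. Members and lists were chosen with earlier results of these data known.

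The counts were filtered with filterByExpr, scaled with TMM (factors 0.974 to 1.03) and tested over all 17630 remaining genes with edgeR 4.0.16 (R 4.3.3; robust quasi-likelihood, no covariate, Benjamini-Hochberg, threshold 0.05). CPM use the filtered, TMM-scaled totals; a standard error is the log2 fold change divided by the square root of F. Full values were given for Abcb1a, Abcb1b, Abcc1, Abcg2 and members changed at least 1.5-fold; related genes named are up to 3 per list, the largest changes with a mean of at least 5 CPM. Other related genes named are said to be chosen after their values were seen. Overlap between transcripts was checked for ABC members only. All 50 members matched the RefSeq (GRCm38.p6) and GENCODE M21 tables; 26 of the 36 with values had a promoter window. Counting error alone is covered by the limit of 3 counts. Replicates of a group differed by a chi-square per degree of freedom of 3.21 to 7.3, a spread beyond counting error. All libraries were kept in the main test. In counts simulated from this comparison, over 17336 genes, 27 of 50 changes of 1.2-fold, 41 of 50 of 1.5-fold and 43 of 50 of 2-fold were recovered. Only 50 genes per size of change were altered there, whereas 66.5% of all 17630 genes were called in the main test. Recovery with that large a share of changed genes was not tested. Alternatives were other scalings and filters, DESeq2 1.42.0, limma-voom (limma 3.58.1), the robust setting off, each library left out and a replicate block. A neighbour offset was added after the data were seen. Single values of 2 members are not reported here; counts and medians over the family include them.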

Additional observations from a re-analysis of the deposited data

How the results depend on the processing

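Over 15 other settings (scalings, filters, tools, a replicate block and each library left out), 18 to 22 members were higher and 11 to 12 lower in CSC, and the family's median log2 fold change ran from 0.131 to 0.223. The 16 genes described in full kept direction and call in each setting that tested them. Leaving out each library gave 18 to 19 higher and 12 lower. Of 34 members, 30 changed no call under any of the 15; Abcb8, Abcb10, Abcc10 and Abcg4 did, and Abcf3 and Abcg1, neither of them called, took both signs. Upper-quartile and plain library-size scaling shifted the median of all genes to 0.0699 and 0.0771. With the neighbour offset, added after the data were seen, Abcf1 moved to 0.18; the offset itself sets this move. A replicate block gave 19 higher and 12 lower, as without it. Same-numbered libraries did not deviate together (r = -0.0112, -0.0257 and -0.0216). With 3 libraries per group and deviations taken from the group means, this cannot decide whether the numbers pair the samples. The filter at a mean of 50 counts leaves 32 of the 36 members. Members under about 1 CPM are limited by depth.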
